A study of Serinus canaria and Ploceus bicolor and Uraeginthus cyanocephalus with 155 samples.

Results

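The entopallium of female canaries (Serinus canaria) that did not sing was compared between seasons. Of 155 arrays in the series, which cover 3 songbird species and up to 3 brain areas, 11 were chosen by their labels as canary entopallium of untreated non-singing females, with 1 array per bird. The breeding group held 6 adult females kept on a long-day light cycle, and the non-breeding group held 5 adult females kept on a short-day light cycle. No bird of either group received testosterone or any other treatment, and song was recorded as absent in both. By the methods of the study, breeding canaries lived as pairs. Non-breeding canaries also lived as pairs at first, on short days, and were then singly housed in sound-attenuating boxes while song was monitored before they were killed. Season, light cycle and this last housing changed together, so they cannot be told apart. RNA came from tissue dissected out of brain sections and was hybridised to a custom Affymetrix exon array designed on zebra finch sequence, which gave a level on the log2 scale for each of 26061 transcripts. The comparison asks which transcripts of a brain area outside the song system differed with the season in females that were silent in both.

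The entopallium is the forebrain target of the tectofugal visual pathway of birds and serves the processing of visual motion and form. It is not one of the song control nuclei, such as HVC, which take part in the learning and production of song. Canaries are seasonal breeders in which long days bring on gonadal growth and raised sex steroids, and short days the reverse.

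The transcripts carry only zebra finch, other vertebrate or cDNA identifiers, and 0 of 26061 matched the 17915 genes of the canary RefSeq table, so they are given by identifier, without gene names. For the same reason the dissected area could not be checked against marker genes, and fewer cells of a type and less RNA per cell cannot be told apart. By the values themselves, the most similar array of each of the 11 birds, among the entopallium and HVC arrays of non-singing females, was entopallium of the same season in 11 of 11 cases. No pair of the 11 arrays was identical.

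The birds of a season resembled each other more than those of the other season. Spearman correlations over all transcripts averaged 0.992 within the breeding females (15 pairs, 0.988 to 0.994) and 0.989 within the non-breeding females (10 pairs, 0.984 to 0.994). Between seasons they averaged 0.983 (30 pairs, 0.976 to 0.987). Non-breeding replicate 5 stood apart from its group, with a mean correlation of 0.985 with the other 4 non-breeding birds and of 0.983 with the breeding birds. Without it the non-breeding average was 0.991. The first principal component, with 35.2% of the variance, separated the seasons. The breeding females had scores of at least 13.04, and the non-breeding females had scores of -10.9 or less, of which that of replicate 5 was nearest to the breeding birds. On the second component, with 14.1% of the variance, non-breeding replicate 5 scored 28.6, against -16.6 to 16.2 in the other birds. The median SD of a transcript was 0.11 in breeding females, 0.13 in non-breeding females and 0.11 in non-breeding females without replicate 5.

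**Figure D1:**
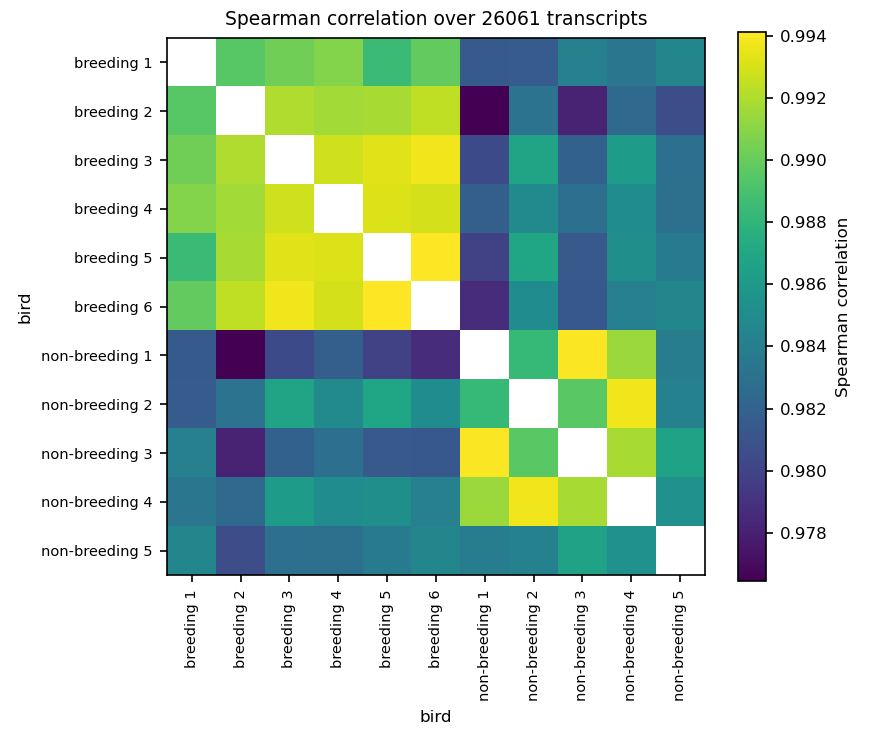
Spearman correlation over all transcripts between the 11 entopallium arrays of non-singing females, breeding birds first on both axes, with the colour giving the correlation and the diagonal left blank. Pairs within the breeding group lie between 0.988 and 0.994, pairs between seasons lie between 0.976 and 0.987, and non-breeding replicate 5 correlates with its own group at 0.985 on average.

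The arrays of breeding females were slightly brighter in total intensity and at their bright end, and not detectably so in the median or at the low end. Their total linear intensity lay between 22.98 and 23.01 on the log2 scale, against 22.95 to 22.97 in non-breeding females, and the groups did not overlap. The difference of the means was 0.034 (exact permutation test, two-sided, over 462 arrangements, p = 0.00433, adjusted p = 0.0130 over 4 array measures). The 99th percentile of the levels was 11.41 ± 0.02 in breeding females (SD, n = 6) and 11.35 ± 0.02 in non-breeding females (SD, n = 5), a difference of 0.06 (exact permutation test, p = 0.00649, adjusted p = 0.0130). The median level was 7.34 ± 0.02 in breeding females and 7.32 ± 0.03 in non-breeding females (exact permutation test, p = 0.310, adjusted p = 0.413). The 1st percentile was 2.84 ± 0.03 in breeding females and 2.84 ± 0.04 in non-breeding females (exact permutation test, p = 0.898). The sources used here do not give hybridisation dates, and the part of array brightness in the transcript results was examined only by rescaling, where rescaled values are given.

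Transcripts were tested with limma, a linear model in which the variance of each transcript is drawn towards a common value. A transcript was called where the adjusted p of limma was under 0.05 and the log2 difference was 0.5 or more in size. Between breeding and non-breeding females 886 transcripts were called, which was 3.4% of those tested. Of these, 360 were higher in breeding females (1.38%) and 526 were lower (2.02%). By the adjusted p alone 6565 transcripts differed (25.2%), with 3691 higher and 2874 lower in breeding females, so most of the transcripts past the test differed by less than the fold threshold. The median log2 difference of all transcripts was 0.030. When the arrays were scaled to the same total intensity, 263 transcripts were called higher and 653 lower, and 28.7% of the calls were then on the higher side, against 40.6% as deposited. Of the 360 transcripts called higher, 263 remained called under that scaling, and of the 526 called lower all 526 did.

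The called differences were mostly small. The median size was 0.58 on the log2 scale for the transcripts that rose and 0.61 for those that fell, and 839 of 886 (94.7%) were under 1. A size of 1 or more was reached by 16 transcripts that rose and 31 that fell, and a size of 2 or more by 0 that rose and 3 that fell. The levels of the 2 groups did not overlap in 223 of the 360 higher and 341 of the 526 lower transcripts. These lists were called on the same levels, which by itself raises their share without overlap, so it is no separate evidence for the calls. Over all transcripts the levels of the 2 groups did not overlap in 3270 (12.5%), with the breeding birds above in 1755 (6.73%) and below in 1515 (5.81%). Without non-breeding replicate 5 that number over all transcripts was 5285, and 1140 transcripts were called. Leaving out any bird can only keep or raise the number without overlap, and it was 3525 to 5285 over the single omissions. Of the calls made with all birds, 181 of 360 higher (50.3%) and 320 of 526 lower (60.8%) transcripts stayed called whichever of the 11 birds was omitted.

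Calls occurred at all signal levels. With the transcripts split by mean level into 4 bins of equal size, from the dimmest to the brightest, 66, 72, 70 and 152 transcripts were called higher in breeding females, and 135, 135, 113 and 143 were called lower. The share called higher was 2.33% in the brightest bin and 1.01 to 1.11% in the others, whereas the share called lower was 1.73 to 2.19% in every bin. The median log2 difference of all transcripts in a bin was -0.0061, 0.022, 0.064 and 0.060, from the dimmest to the brightest. The counts by bin are as deposited and were not repeated on rescaled arrays, although the arrays of breeding females were brighter in total intensity. By identifier, 451 of 10482 predicted RefSeq mRNAs (XM, 4.30%), 38 of 895 predicted RefSeq non-coding RNAs (XR, 4.25%) and 317 of 11936 zebra finch Ensembl transcripts (ENSTGUT, 2.66%) were called. These shares describe the annotation sources, and no test was made between them.

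**Figure D2:**
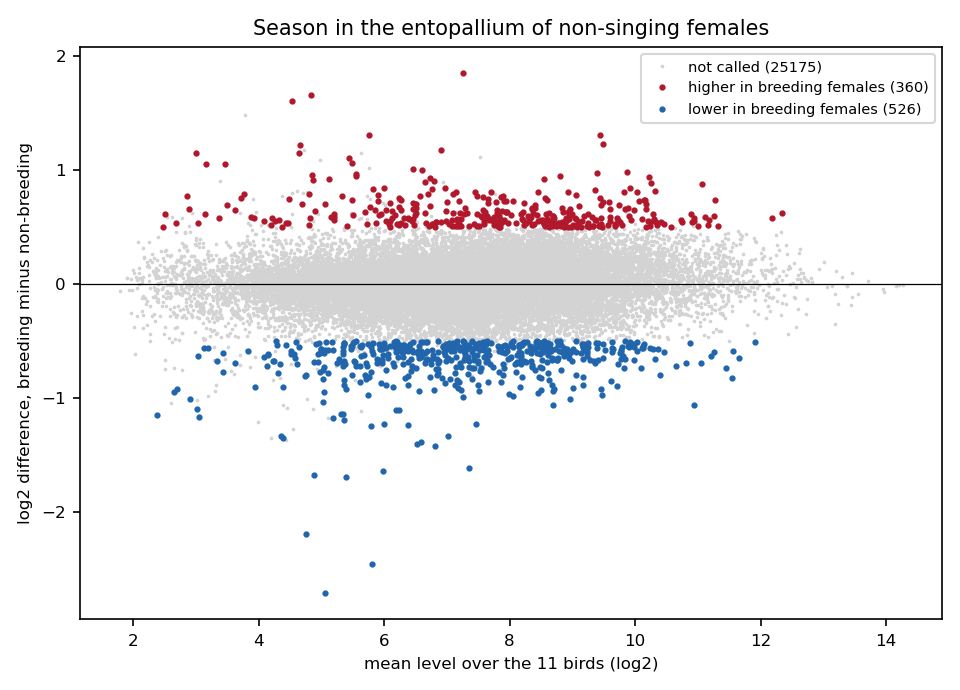
Log2 difference (breeding minus non-breeding) of each of 26061 transcripts against its mean log2 level over the 11 birds, with transcripts called higher in breeding females in red (360), called lower in blue (526) and all others in grey. Most called transcripts lie just past a difference of 0.5, and the largest differences, up to 2.71 in size, are on the lower side.

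The transcripts named here are those with the largest differences in each direction among the called transcripts without overlap between the groups, so that their size is a result of that choice. XM_002194545 had levels of 8.34, 7.88, 7.80, 8.37, 8.30 and 7.95 in breeding females, against 5.69, 6.25, 6.64, 5.41 and 7.27 in non-breeding females. The breeding birds lay close together, and the highest non-breeding bird was replicate 5. The log2 difference was 1.85 ± 0.27 (SE; adjusted p = 9e-04 from limma). Without replicate 5 of the non-breeding females it was 2.11. The transcript stayed called in 19 of 19 alternatives that kept it, and the filter on the dimmest 50% of transcripts removed it.

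XM_002199737, a dim transcript, had levels of 4.84, 4.57, 5.62, 5.70, 5.29 and 5.57 in breeding females, against 3.52, 3.41, 3.68, 3.26 and 4.43 in non-breeding females. Here too replicate 5 was the highest non-breeding bird, just under the lowest breeding bird. The log2 difference was 1.61 ± 0.24 (SE; adjusted p = 0.000898 from limma). It stayed called in 18 of 18 alternatives that kept it, and the filters on the dimmest 25% and 50% of transcripts removed it.

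ENSTGUT00000003958 had levels of 1.85, 3.16, 5.16, 5.28, 2.06 and 5.47 in breeding females, against 7.07, 6.42, 6.77, 6.37 and 6.08 in non-breeding females. It was the largest fall as measured, and the breeding birds were spread over a far wider range (SD 1.68, n = 6) than the non-breeding birds (SD 0.38, n = 5), with replicates 1, 2 and 5 below the other breeding birds. The levels of breeding replicates 1 and 5 were below the 1st percentile of their own arrays (2.83 and 2.85), at the floor of the measurement. The log2 difference was -2.71 ± 0.65 (SE; adjusted p = 0.0102 from limma) as deposited and -2.42 with these 2 levels raised to that percentile, an alternative chosen after the data were seen, which is less than the fall of XM_002192196.

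XM_002192196 had levels of 5.16, 3.32, 5.58, 5.20, 5.96 and 2.90 in breeding females, against 6.07, 7.21, 7.44, 7.67 and 7.33 in non-breeding females. Breeding replicates 2 and 6 were far below the other breeding birds, and non-breeding replicate 1 lay apart from its group, close to the highest breeding bird. The log2 difference was -2.46 ± 0.52 (SE; adjusted p = 0.00584 from limma). ENSTGUT00000003958 and XM_002192196 each stayed called in 18 of 18 alternatives that kept them, which included the omission of each bird. The filters on the dimmest 25% and 50% of transcripts removed both.

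**Figure D3:**
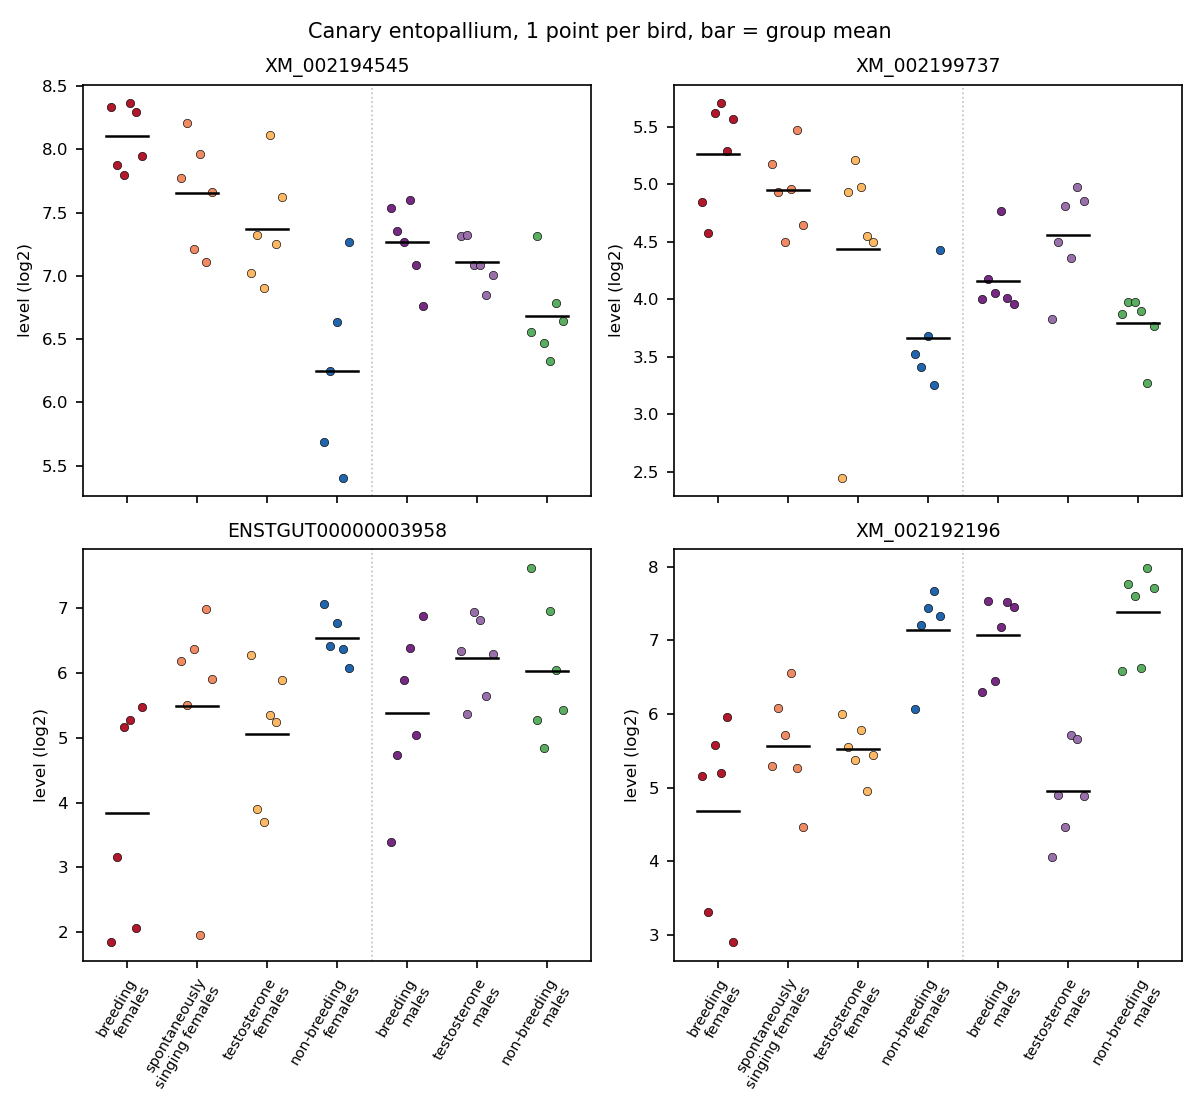
Log2 levels of XM_002194545, XM_002199737, ENSTGUT00000003958 and XM_002192196 in the entopallium of 41 canaries, 1 point per bird, the bar giving the group mean, and females left of the dotted line. Breeding and non-breeding non-singing females do not overlap in any of the 4 panels, and testosterone-implanted males, with a mean of 4.95, lie below the other males for XM_002192196.

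The season was next compared between the sexes in the same area. The breeding males (n = 6, long day) sang and the non-breeding males (n = 6, short day) did not, so in males season and singing cannot be told apart. In the entopallium of males 264 transcripts were called (1.01%), of which 92 were lower in breeding males (0.353%) and the others were higher (0.66%). A limma model with an interaction of season and sex over 23 birds called 999 transcripts (3.83%), and the signed seasonal log2 difference of females minus that of males was positive for 422 (1.62%) and negative for 577 (2.21%). A negative value can be a larger fall in females. With the same total intensity on every array there were 329 positive and 705 negative values. Of the 999, 350 were called in females and not in males, 70 in males and not in females, 10 in both with opposite directions, 1 in both with the same direction, and 568 in neither sex.

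Most of the transcripts called in females were not called in males. Of the 360 transcripts higher in breeding females, 44 were called higher in breeding males (12.2%, or 25.6% of the transcripts higher in breeding males) and 5 were called lower. Their median log2 difference in males was 0.17, against -0.018 for all transcripts. Of the 526 lower in breeding females, 17 were called lower in breeding males (3.23%, or 18.5% of the 92 lower in breeding males) and 5 were called higher, with a median of -0.11. The interaction was called in the direction of the female change for 126 of the 360 and 235 of the 526. These last counts rest on the same female arrays that chose the transcripts.

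XM_002189651 showed the largest positive interaction among called transcripts without overlap between the female groups. Its levels were 10.50, 9.96, 10.12, 9.43, 10.08 and 10.19 in breeding females, against 8.25, 9.01, 9.08, 9.40 and 8.35 in non-breeding females. In males they were 8.36, 8.35, 8.41, 8.57, 8.17 and 9.59 in breeding birds, against 9.50, 9.16, 9.33, 9.60, 9.41 and 9.09 in non-breeding birds. All breeding males except replicate 6 were below all non-breeding males. It rose by 1.23 ± 0.22 (SE) in breeding females and changed by -0.77 ± 0.20 in breeding males, and both passed limma's test (adjusted p = 0.00237 and 0.0230). The interaction was 2.00 ± 0.31 (SE; adjusted p = 0.00021 from limma).

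XM_002197121 was near the floor of the arrays. It averaged 4.13 ± 0.34 in breeding females and 3.34 ± 0.26 in non-breeding females (SD, n = 6 and 5), and 2.88 ± 0.44 in breeding males and 3.73 ± 0.52 in non-breeding males (SD, n = 6 each). In breeding males 4 of 6 levels were below the 1st percentile of their own array, so the male level is not well measured. The interaction was 1.63 ± 0.32 (SE; adjusted p = 0.00116 from limma) as deposited and 1.45 with those levels raised to that percentile.

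XM_002189682 showed the largest negative interaction of the transcripts so limited. It averaged 5.24 ± 0.72 in breeding females and 6.88 ± 0.40 in non-breeding females (SD, n = 6 and 5), and 7.15 ± 0.42 in breeding males and 6.57 ± 0.63 in non-breeding males (SD, n = 6 each). It fell by 1.64 on the log2 scale in breeding females (adjusted p = 0.00303 from limma), and the difference of 0.59 in males did not pass the test (adjusted p = 0.175). The interaction was -2.22 ± 0.44 (SE; adjusted p = 0.00131 from limma). For XM_002192196, described above, the interaction was -2.15 ± 0.64 (SE; adjusted p = 0.0202 from limma), since its level was 7.07 ± 0.56 in breeding males and 7.38 ± 0.61 in non-breeding males (SD, n = 6 each).

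By the bird numbers in the titles, the same females were also measured in HVC, with 6 arrays of each season. Every one of the 11 entopallium birds had an HVC array under the same bird number. The non-breeding HVC group also held a bird without an entopallium array. The values showed this pairing only weakly. The most similar HVC array bore the same number for 3 of the 11, and was of the same season for 6 of the 11. The deviations from the group means correlated between the areas at -0.088 to 0.24 (median 0.087). In HVC 707 transcripts were called (2.71%), with 307 higher (1.18%) and 400 lower (1.53%) in breeding females. With only the birds measured in both areas, 730 transcripts were called in HVC. Of the 360 transcripts higher in the entopallium of breeding females, 58 were called higher in HVC (16.1%, or 18.9% of the 307 HVC calls) and 1 was called lower. Of the 526 lower in the entopallium, 136 were called lower in HVC (25.9%) and 2 were called higher. The median log2 difference in HVC was 0.27 for the first list and -0.31 for the second, against -0.0081 for all transcripts. Across all transcripts the seasonal differences of the entopallium correlated with those of HVC at a Pearson r of 0.418 and with those of the male entopallium at 0.187. The HVC value comes from the same birds by their numbers, and transcripts are not independent replicates. The 4 transcripts named above for the season were the 2 largest rises and 2 largest falls among those without overlap. All 4 were called in HVC in the same direction. Their log2 differences there were 1.22 for XM_002194545, 1.74 for XM_002199737, -1.71 for ENSTGUT00000003958 and -1.39 for XM_002192196 (largest adjusted p = 0.00550 from limma). For XM_002199737, 1 of 6 non-breeding HVC levels was below the 1st percentile of its own array, so that level is not well measured. With it raised to that percentile, the non-breeding HVC mean was 3.88, against 3.84 as deposited.

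**Figure D4:**
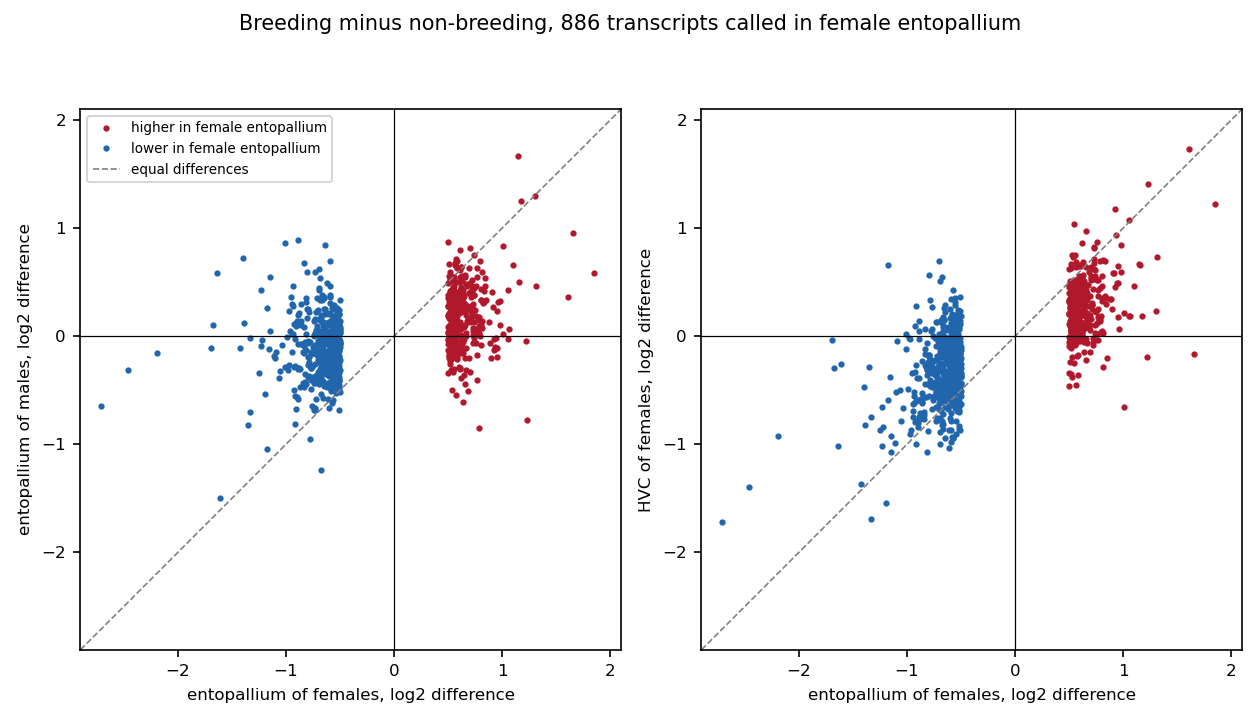
Log2 difference (breeding minus non-breeding) of the 886 called transcripts in the entopallium of females on the x axis, against the difference in the entopallium of males (left) and in HVC of females (right), with the dashed line marking equal differences. Transcripts higher in breeding females (red) have a median of 0.17 in males and 0.27 in HVC, and those lower (blue) have medians of -0.11 and -0.31.

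For some transcripts the seasonal difference also depended on the brain area. A limma model with an interaction of season and area over 23 arrays, with the bird as a random block, called 770 transcripts (2.95%), and the signed seasonal difference of the entopallium minus that of HVC was positive for 325 (1.25%) and negative for 445 (1.71%), where a negative value can be a larger fall in the entopallium. With the same median on every array there were 213 positive and 622 negative values. With only the birds measured in both areas, the interaction was called for 846 transcripts. Of the 770, 215 were called in the entopallium and not in HVC, 146 in HVC and not in the entopallium, 3 in both with opposite directions, 3 in both with the same direction, and 403 in neither area alone. The interaction was called in the direction of the entopallium change for 82 of the 360 higher (22.8%) and 139 of the 526 lower transcripts (26.4%). These last counts rest on the same entopallium arrays that chose the transcripts.

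XM_002195473, a bright transcript, had the largest positive interaction by area among called transcripts without overlap between the entopallium groups. Its entopallium levels were 10.59, 10.79, 10.73, 10.77, 10.64 and 10.61 in breeding females, against 9.52, 10.31, 9.78, 9.92 and 9.85 in non-breeding females, and the groups did not overlap. It rose by 0.82 ± 0.11 (SE) in the entopallium of breeding females (adjusted p = 0.000626 from limma), while in HVC the difference was -0.29 ± 0.13 and did not pass the test (adjusted p = 0.120). The interaction was 1.10 ± 0.17 (SE; adjusted p = 0.000397 from limma). XM_002188443 averaged 6.38 ± 0.38 in breeding females and 5.53 ± 0.27 in non-breeding females (SD, n = 6 and 5), with an interaction of 1.04 ± 0.27 (SE; adjusted p = 0.0116 from limma).

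ENSTGUT00000015454 had the largest negative interaction by area under the same limit. Its entopallium levels were 4.33, 3.87, 4.32, 4.41, 5.42 and 5.53 in breeding females, against 5.81, 5.87, 5.87, 5.70 and 5.84 in non-breeding females, which lay within a narrow range. In HVC the levels were 5.84, 5.69, 4.71, 5.74, 6.07 and 5.21 in breeding females, against 4.08, 5.01, 4.67, 4.57, 5.44 and 5.52 in non-breeding females, and the groups overlapped. The interaction was -1.84 ± 0.38 (SE; adjusted p = 0.00277 from limma). XM_002190050 averaged 4.63 ± 0.55 in breeding females and 6.32 ± 0.65 in non-breeding females (SD, n = 6 and 5). Its interaction of -1.67 ± 0.54 (SE; adjusted p = 0.0384 from limma) was not called in 7 of 17 alternatives that kept it, with an adjusted p of 0.0585 without the block for the bird and of up to 0.0812 when a bird was left out (breeding replicates 1, 2 and 5 and non-breeding replicates 1, 3 and 5). In HVC XM_002190050 was near the floor of the arrays, at 3.68 ± 0.70 in breeding and 3.72 ± 1.01 in non-breeding females (SD, n = 6 each). There 1 of 6 non-breeding levels was below the 1st percentile of its own array, so the HVC difference is not well measured.

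In the cerebellum of females, with 6 birds of each season, 36 transcripts were called (0.138%), 18 in each direction (0.0691% each). None of the 360 or 526 entopallium transcripts was called there in the same direction, and 2 of the 526 were called higher. With 0.0691% of all transcripts called in each direction, lists of this size would hold few or none by that share. The lack of shared calls therefore does not show that these transcripts were without a seasonal difference in the cerebellum. The median residual SD of a transcript was 0.153 in the cerebellum, against 0.129 in the female entopallium and 0.113 in female HVC. The cerebellum count of 36 was between 0 and 99 when single birds were left out. The median log2 difference of the entopallium transcripts in the cerebellum was 0.015 for the higher list and -0.026 for the lower list.

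The level of the seasonal transcripts was also placed in each canary entopallium. For each array the mean of the higher list minus the mean of the lower list was taken and set on a scale where 1 is the mean of the breeding and 0 the mean of the non-breeding non-singing females. For the 11 birds themselves the lists and the scale were made without the bird in question. The breeding females lay at 0.891, 0.988, 0.855, 0.906, 0.824 and 0.926, and the non-breeding females at -0.0053, 0.145, 0.0412, 0.101 and 0.509. On this scale non-breeding replicate 5 was thus midway between the seasons, while each of the other 10 birds lay nearer to its own group. That bird also stood apart on the second principal component, so its position need not be a matter of season alone. All 11 positions are descriptions of the birds that define the scale.

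The non-breeding birds of the other groups did not all lie near 0. Non-breeding females that sang spontaneously (n = 6, short day) lay between 0.703 and 0.844 (median 0.745), and non-breeding females that sang after testosterone implantation (n = 6, short day) lay between 0.651 and 0.741 (median 0.708). All 12 birds were above all 5 non-breeding non-singing females, which were also on short days. The cause was not tested, and the 5 birds are among those that define the scale. Breeding males lay between 0.344 and 0.505 (median 0.375), testosterone-implanted males between 0.349 and 0.471 (median 0.426) and non-breeding males between 0.132 and 0.246 (median 0.170). The male groups of breeding and testosterone-implanted birds overlapped with each other and did not overlap with the non-breeding males. The spontaneously singing females differed from the other canaries in the low end of their arrays, where the 1st percentile was 3.22 to 3.43, against 2.80 to 2.90 in the breeding and 2.80 to 2.90 in the non-breeding non-singing females. Without the dimmest 50% of transcripts their median position was 0.715, and that of testosterone-implanted females was 0.700. With the same total intensity on every array the medians were 0.754 and 0.685, and without non-breeding replicate 5 that of spontaneously singing females was 0.748 and that of breeding males was 0.444.

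**Figure D5:**
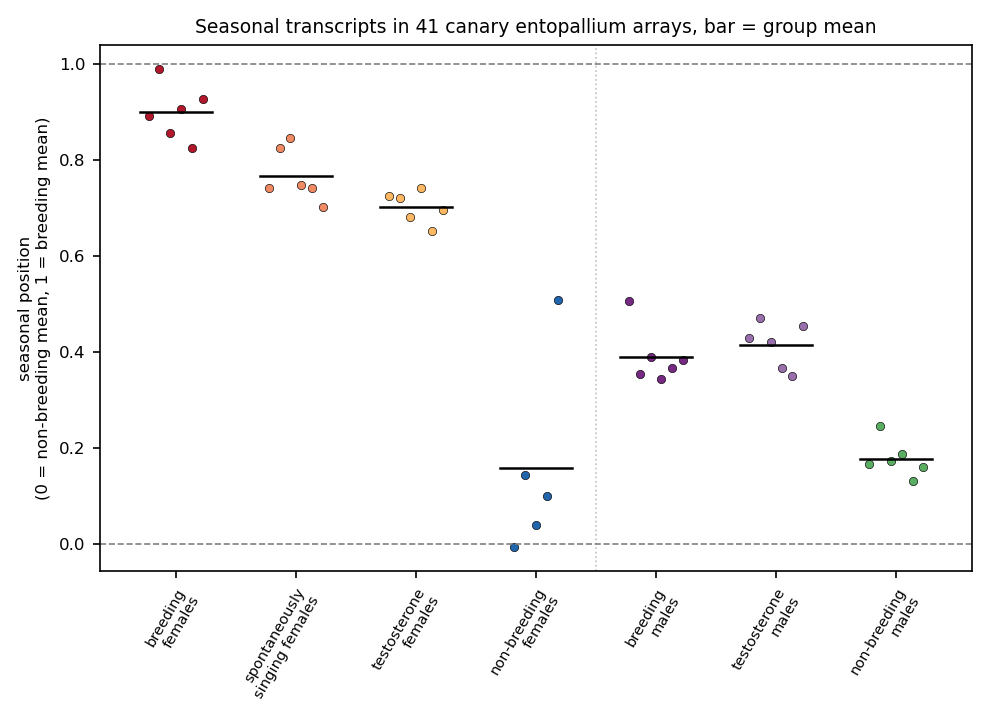
Position of each of 41 canary entopallium arrays on a scale with the mean of breeding non-singing females at 1 and that of non-breeding non-singing females at 0, over the transcripts called between them, 1 point per bird, the bar giving the group mean. Each of the 11 birds that define the scale was placed with lists and a scale made without it, so the bars of these 2 groups need not lie at 1 and 0. All other arrays were placed with the lists called over all 11 birds. Breeding females lie between 0.824 and 0.988, both groups of singing females between 0.651 and 0.844, and non-breeding females at or below 0.145 except replicate 5 at 0.509. The male groups lie between 0.132 and 0.505.

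The groups were also placed transcript by transcript. Spontaneously singing females were on the breeding side of the midpoint between the seasons for 251 of the 360 higher (69.7%) and 371 of the 526 lower transcripts (70.5%). Testosterone-implanted females were so for 229 (63.6%) and 381 (72.4%), breeding males for 158 (43.9%) and 183 (34.8%), testosterone-implanted males for 127 (35.3%) and 216 (41.1%), and non-breeding males for 51 (14.2%) and 64 (12.2%). Both female groups were thus above the male groups in both lists, while the order of the 2 singing female groups, and that of breeding and testosterone-implanted males, differed between the lists. Breeding females had the highest mean of the 7 canary groups in 184 of the 360 higher transcripts (51.1%, against 11.2% over all transcripts), and spontaneously singing females in 88 (24.4%, against 35.0% over all transcripts). Non-breeding females had the highest mean in 317 of the 526 lower transcripts (60.3%, against 10.2% over all transcripts), and non-breeding males in 85 (16.2%, against 9.77%). No test was made, since the lists were chosen on the females of the 2 seasons. That choice by itself raises the share of breeding females in the higher list and of non-breeding females in the lower list. Each transcript counts only for the group with its highest mean, so the choice also moves the shares of the other groups. The shares over all transcripts are therefore no baseline for any of the 7 groups. For the midpoint no share over all transcripts was counted, and the midpoint rests on the same females that chose the lists. The midpoint counts of the other groups are therefore descriptions without a baseline.

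Single transcripts differed in the order of the groups. XM_002194545 averaged 7.65 ± 0.43 in spontaneously singing females, 7.37 ± 0.44 in testosterone-implanted females and 7.11 ± 0.18 in testosterone-implanted males (SD, n = 6 each), all between the 8.10 ± 0.26 of breeding females and the 6.25 ± 0.74 of non-breeding females. XM_002192196 averaged 5.56 ± 0.73 in spontaneously singing females, 5.52 ± 0.36 in testosterone-implanted females and 4.95 ± 0.65 in testosterone-implanted males (SD, n = 6 each). Its level in testosterone-implanted males, between 4.06 and 5.72, was below that of all breeding males (6.30 to 7.54) and all non-breeding males (6.59 to 7.99), and within the range of breeding females (2.90 to 5.96).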

How the data were processed

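The labels gave species, area, sex, light cycle, breeding state, treatment and song of each bird, and replicate numbers were those of the titles. The deposited table held log2 transcript levels, which the authors had summarised from probes and normalised between arrays. Affymetrix Expression Console is the one tool in the submitters' processing notes, without version or settings. The 26061 transcripts had no missing values, and no filter or scaling was applied. Of 155 arrays 107 were used, and 0 columns lacked a sample.

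Each comparison was fitted with limma 3.58.1 in R 4.3.3 on the groups concerned, with Benjamini-Hochberg adjustment over all transcripts, and the fitting was tested on simulated data. The threshold of 0.5 on the log2 scale follows the study's methods, whose probe-level test was not used here. Array measures were compared with exact permutation tests. Positions and ranks of groups carry no test. For the season in female entopallium, the 2 largest rises and 2 largest falls among called transcripts whose female entopallium groups did not overlap are named. For each of the 2 interactions, the 2 largest positive and 2 largest negative values under the same limit are named. Planned gene lists could not be applied without gene names. The comparisons, lists and alternatives were chosen with earlier results of these data known. The number of arrays limits the precision. Alternatives covered scaling, low-level filters, calling rules, limma options, blocks and the omission of each bird.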

Additional observations from a re-analysis of the deposited data

Results flagged for a closer look

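Among 37 groups of 5 or 6 values examined (named transcripts, array measures and seasonal positions), the highest or lowest bird stood apart by Dixon's criterion in 3, where chance alone flags about 1 in 20. Non-breeding replicate 1 had a level of 6.07 for XM_002192196, below the other non-breeding females. Breeding replicate 1 had a median array level of 7.30, below the other breeding females. Among breeding males, replicate 1 had a seasonal position of 0.505, above the other males of its group.

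The seasonal difference of some transcripts differed between groups by a tested interaction. Between the sexes limma called 999 transcripts (3.83%), with interactions of 2.00 for XM_002189651, 1.63 for XM_002197121, -2.22 for XM_002189682 and -2.15 for XM_002192196. In males season and singing cannot be told apart. For XM_002197121, 4 of 6 levels in breeding males were below the 1st percentile of their own array. Between the entopallium and HVC of females 770 transcripts were called (2.95%), with interactions of 1.10 for XM_002195473, 1.04 for XM_002188443, -1.84 for ENSTGUT00000015454 and -1.67 for XM_002190050. The interaction of XM_002190050 was not called in 7 of 17 alternatives that kept it, and its HVC levels were near the floor of the arrays.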

How the results depend on the processing

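The count of 886 seasonal transcripts in female entopallium was 916, 888 and 874 with the same total intensity, the same median and quantile normalisation, with 28.7%, 34.8% and 32.8% of the calls higher in breeding females, against 40.6% as deposited. It was 490 without the dimmest 50% of transcripts, 6565 by the adjusted p alone and 1045 with array weights. Leaving out single birds gave 744 to 1140 (1140 without non-breeding replicate 5). For the season by sex the count of 999 was 857 to 1184, and for the season by area the count of 770 was 595 to 983, with single entopallium birds of the females left out. The share of positive interactions by sex (females minus males) was 31.8% with the same total intensity, 32.6% with the same median and 33.2% with quantile normalisation, against 42.2% as deposited. By area (entopallium minus HVC) it was 32.7%, 25.5% and 32.2%, against 42.2%. In males the count of 264 was 133 without the dimmest 50%, 3626 by the adjusted p alone and 434 by the fold change alone. In HVC the count of 707 was 356 and 7059 under the first 2 of these settings. In the cerebellum the count of 36 was 20 with quantile normalisation, 67 and 60 without the dimmest 25% and 50%, 224 by the adjusted p alone, 247 by the fold change alone, 112 with array weights and 0 to 99 with single birds left out. Transcripts without overlap between the groups, 3270 in all, numbered 3525 to 5285 with single birds left out, the highest without non-breeding replicate 5. An omission can only keep or raise this number. The difference in the 1st percentile of the arrays, 0.0026, was -0.0078 to 0.018 with single birds left out. The cause of these changes was not tested, beyond the fewer transcripts or birds that a setting leaves. All 4 transcripts named for the season and all 4 named for the sexes kept their direction and their call in every alternative that kept the transcript. The filters on dim transcripts removed each of those named for the season in at least 1 setting, and XM_002197121 of those named for the sexes.

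Replicate numbers did not pair the birds. Over 5 numbers the deviations from the group means correlated at -0.084 to 0.10, and 1 of 10 birds correlated best with its own number. With the replicate block 805 transcripts were called in female entopallium, 981 by the season and sex interaction, 245 in males, 708 in HVC and 0 in the cerebellum.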
